A study of Homo sapiens with 6 samples.

Results

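Glutathione S-transferases join the tripeptide glutathione to reactive compounds, which makes the products more soluble and ready for export from the cell. The cytosolic enzymes form classes named after Greek letters (pi, mu, alpha, omega and theta among them), the kappa enzyme lies in mitochondria and peroxisomes, and the microsomal enzymes (MGST) are an unrelated family of membrane proteins. Several of them also reduce peroxides or make lipid mediators. In the prostate the pi-class gene GSTP1 is known best: basal cells express it, and its promoter is methylated and the gene silent in most prostate cancers. The description here covers 10 of these genes, taken from the deposited table by symbol: GSTP1, GSTM2, GSTM3, GSTM4, GSTA4, GSTK1, GSTO1, GSTT2B, MGST1 and MGST2. All 10 symbols were found, each once, among 35554 genes.

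Messenger RNA was sequenced in 3 flasks of parental LNCaP cells and 3 of LNCaP-enzaR cells. LNCaP is an established line from a lymph node metastasis of human prostate cancer. LNCaP-enzaR was derived from it by continuous culture with enzalutamide, an inhibitor of androgen signalling, and was then kept on a lower concentration of the drug. The growth protocol in the labels gives flasks plated in triplicate and does not give the drug in the medium at harvest. Each line is 1 culture history, so p-values measure the spread between flasks and not between independent derivations of resistance. The comparison addresses how expression differs between the resistant line and its parent.

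Libraries held 77759122 to 98616465 counts, at which 3 counts correspond to 0.0302 to 0.0382 CPM (counts per 1000000 of the TMM-scaled library). Of 19711 genes that passed the filter on low counts, 8425 (42.7%) were past the threshold, which was set at 0.05 for the adjusted p and at 1.5-fold for the size of the difference. Adjusted p-values are those of edgeR's quasi-likelihood test with Benjamini-Hochberg adjustment over all 19711 genes, and fold changes are LNCaP-enzaR over parental. The mitochondrial genome gave 6.72% to 7.06% of counts in parental libraries and 14.8% to 15.5% in LNCaP-enzaR libraries. With its genes left out, each transferase tested below kept its call. All 10 luminal prostate markers passed the filter. Their summed level was 4526 to 4583 CPM in parental and 3142 to 3304 CPM in LNCaP-enzaR libraries. Of these markers 6 were lower, among them KLK3 at 1190 and 141 CPM, and 2 were higher. The higher ones were KRT8 at 397 and 886 CPM and STEAP2 at 387 and 696 CPM. Of 8 basal markers, 5 passed the filter. All 8 summed to 13.4 to 15.3 CPM in parental and 14.1 to 18.0 CPM in LNCaP-enzaR libraries. DST gave most of that, at means of 11.9 and 13.5 CPM. KRT14 was lower (1.34 and 0.592 CPM, log2 -1.18) and ITGB4 higher (0.432 and 0.987 CPM, log2 1.19). The defining KRT5 and TP63 had at most 2 counts in any library. None of the 7 immune markers in the table passed the filter, and they summed to 0.154 to 0.313 CPM in parental and 0.0906 to 0.278 CPM in LNCaP-enzaR. The part of these mixed differences of luminal markers in the results below was not tested. In such bulk samples fewer cells of a type and less RNA per cell cannot be told apart.

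The transferases split into genes with almost no reads in either line and genes that were expressed in at least 1 line. GSTP1, GSTM2 and GSTM4 were close to 0 in both lines. The other 7 passed the filter: GSTM3, GSTA4 and GSTK1 were higher in LNCaP-enzaR, GSTT2B was lower, and GSTO1, MGST1 and MGST2 differed by less than 1.5-fold. GSTT2B had only 4, 13 and 20 counts in the LNCaP-enzaR libraries, and its parental counts carried it past the filter. The 3 higher members compare with 23.3% of all tested genes that were higher, and the 1 lower member with 19.5% that were lower. CPM values of the 2 lines did not overlap for any of the 7 tested members, as was so for 70.6% of all tested genes. The median log2 fold change was 0.25 over the 7 members and 0.01 over all tested genes.

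**Figure D1:**
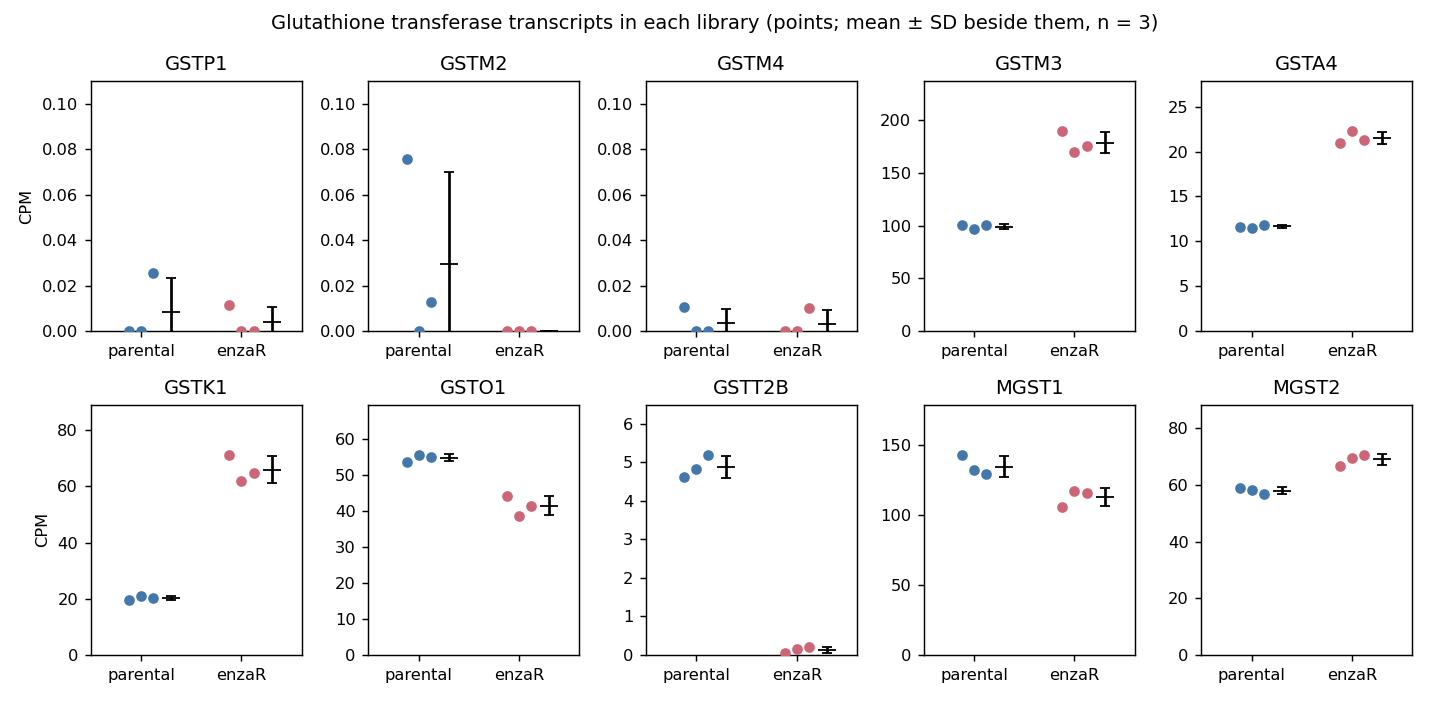
Expression of the 10 transferases in each library, with CPM on the vertical axis (its range differs between panels) and the 2 lines on the horizontal axis. Points are libraries, and the bar beside them is the mean ± SD (n = 3), cut off at 0. GSTP1, GSTM2 and GSTM4 lie at or below 0.0756 CPM in every library, and in the other 7 panels the points of the lines do not overlap.

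GSTP1, the pi-class enzyme (ENSG00000084207.18, chromosome 11, 67583742 to 67586656, GRCh38), had 0, 0 and 2 counts in the parental libraries and 1, 0 and 0 in LNCaP-enzaR. No library exceeded 3 counts, so no fold change is given. At this depth no GSTP1 expression above that floor was detectable in either line. None of its exonic windows of 50 bases occurred a further time in the genome. The nearest tested genes on either side were read in depth. CDK2AP2, a cell-cycle regulator, was at 100 ± 1.07 CPM in parental and 38.1 ± 3.49 CPM in LNCaP-enzaR (SD, n = 3; log2 fold change -1.40, SE 0.07, adjusted p = 2.73e-10), and NDUFV1, a subunit of respiratory complex I, was at 161 ± 2.65 and 166 ± 20.1 CPM (adjusted p = 0.631).

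The 250 bases before the GSTP1 start in RefSeq (GRCh38.p14, chr11:67583562-67583811, plus strand) are shown because this gene is known for methylation of CG pairs in its promoter. Capitals mark the CG pairs.
GSTP1: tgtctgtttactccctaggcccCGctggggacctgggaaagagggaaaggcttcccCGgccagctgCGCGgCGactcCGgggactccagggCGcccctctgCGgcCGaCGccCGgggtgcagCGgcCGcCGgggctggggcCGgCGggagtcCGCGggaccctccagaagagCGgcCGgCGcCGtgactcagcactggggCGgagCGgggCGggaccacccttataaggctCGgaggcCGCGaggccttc
The window held 28 CG pairs, and 84.1% of 35116 promoter windows of the same length held fewer (median 11). It also held the letters TGACTCAGC at chr11:67583746-67583754, a match to TGACNNNGC, the core of the antioxidant response element that NRF2 binds. Searched on both strands, that motif was present in 10.9% of all windows. The gene start in the deposited table lies inside this window, upstream of the RefSeq start. No methylation was measured in these samples.

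The mu-class genes stand side by side on chromosome 1, and 1 of the 3 members was expressed. GSTM4 (ENSG00000168765.17, 109656099 to 109674836) had 1, 0 and 0 counts in parental and 0, 0 and 1 in LNCaP-enzaR. GSTM2 (ENSG00000213366.13, 109668022 to 109709551) had 7, 0 and 1 counts in parental and none in LNCaP-enzaR. Both were too low for the filter, and the 7 counts of GSTM2 came from 1 library. GSTM3 (ENSG00000134202.11, 109733932 to 109741038) was at 100, 96.4 and 101 CPM in parental and at 189, 170 and 175 CPM in LNCaP-enzaR. Every resistant library was above every parental one. The mean rose from 99.0 ± 2.31 to 178 ± 10.03 CPM (SD, n = 3), a 1.80-fold difference (log2 0.85, SE 0.06, adjusted p = 9.00e-09).

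The promoter windows of the 3 mu-class members are shown together because neighbouring genes of like sequence differed so much in level. They are the 250 bases before each RefSeq start on GRCh38.p14, written in the direction of transcription with CG pairs in capitals: GSTM4 at chr1:109655849-109656098 and GSTM2 at chr1:109667807-109668056 on the plus strand, and GSTM3 at chr1:109741039-109741288 on the minus strand.
GSTM4: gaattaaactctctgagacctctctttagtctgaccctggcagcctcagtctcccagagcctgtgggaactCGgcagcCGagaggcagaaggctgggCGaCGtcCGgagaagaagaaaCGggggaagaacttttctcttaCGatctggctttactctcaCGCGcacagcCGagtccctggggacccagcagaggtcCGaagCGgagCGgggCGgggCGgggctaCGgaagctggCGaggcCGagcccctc
GSTM2: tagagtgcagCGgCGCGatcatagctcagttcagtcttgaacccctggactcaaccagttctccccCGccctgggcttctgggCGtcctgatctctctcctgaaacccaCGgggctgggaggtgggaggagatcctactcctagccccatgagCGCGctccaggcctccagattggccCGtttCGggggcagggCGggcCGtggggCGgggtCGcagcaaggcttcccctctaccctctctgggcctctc
GSTM3: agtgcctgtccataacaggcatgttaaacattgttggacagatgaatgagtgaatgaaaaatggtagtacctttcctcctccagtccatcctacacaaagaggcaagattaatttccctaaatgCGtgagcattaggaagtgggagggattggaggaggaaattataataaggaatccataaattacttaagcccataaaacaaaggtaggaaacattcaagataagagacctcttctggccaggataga
GSTM4 held 18 CG pairs, and 63.2% of all windows held fewer. GSTM2 held 14, with 55.2% of windows below it, and GSTM3 held 1, with 6.06% below it. The 2 members of the group with almost no reads thus had windows near the middle of all promoters, and the expressed member had a CG-poor one, which is a description of 3 genes. Elsewhere, GSTK1 (15 CG pairs) and GSTO1 (14) were expressed with about as many CG pairs as GSTM2, and GSTP1 had the most CG pairs of the members and almost no reads.

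**Figure D2:**
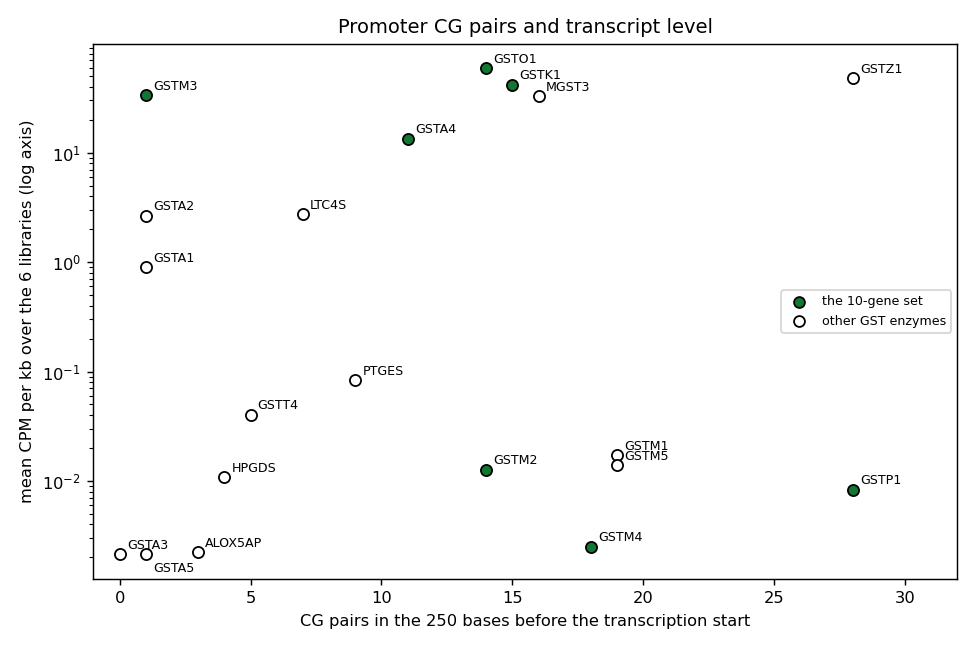
Number of CG pairs in the 250 bases before the start (horizontal axis) and mean level over all 6 libraries in CPM per kb of transcript (vertical axis, log scale) for each transferase with 1 RefSeq promoter window. Filled points are members of the 10-gene set and open points other transferases. GSTP1 and GSTZ1 share a count of 28 CG pairs and lie far apart on the level axis.

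The mu-class genes share stretches of identical sequence. Of the 50-base windows in the exons of GSTM2, 29.0% occurred elsewhere on the primary chromosomes of the genome, against 12.9% for GSTM4 and 5.08% for GSTM3. The reads were longer than these windows, how many of them matched several genes was not measured here, and their handling is not stated in the sources used here. GSTM1, which is missing from the genome of many people, had at most 6 counts in any library and GSTM5 likewise at most 6. Summed to 1 feature, the 4 low mu-class genes (GSTM1, GSTM2, GSTM4 and GSTM5) still did not pass the filter. Outside the cluster, AMPD2 was at 49.9 ± 4.24 and 51.0 ± 5.15 CPM (adjusted p = 0.766). CSF1, a macrophage growth factor, was low in level, with 84, 68 and 47 counts in parental. In LNCaP-enzaR it was lower still, with 4, 7 and 11 counts (log2 -3.22, SE 0.41, adjusted p = 8.25e-06).

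GSTA4, the alpha-class enzyme that prefers the lipid aldehyde hydroxynonenal (ENSG00000170899.11, chromosome 6, 52977948 to 52995304), was at 11.6, 11.5 and 11.9 CPM in parental and at 21.0, 22.3 and 21.3 CPM in LNCaP-enzaR. The groups were narrow and far apart. The mean rose from 11.7 ± 0.177 to 21.5 ± 0.681 CPM (SD, n = 3), or 1.84-fold (log2 0.88, SE 0.07, adjusted p = 5.90e-08). None of its 50-base windows had a further copy. Its neighbour CILK1, a kinase of ciliary signalling, was also higher (log2 1.19, SE 0.08, adjusted p = 5.28e-09).

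Among the other alpha-class genes of the same cluster, GSTA2, best known as an abundant liver enzyme, had the largest increase of any transferase tested. It had 22, 19 and 10 counts in parental and 532, 583 and 611 counts in LNCaP-enzaR. Its mean rose from 0.191 ± 0.0573 to 6.31 ± 0.254 CPM (SD, n = 3), which is 32.3-fold (log2 5.01, SE 0.19, adjusted p = 1.64e-11). GSTA1, its close relative, had 62, 64 and 47 counts and then 126, 149 and 145 (log2 1.22, SE 0.20, adjusted p = 0.000106). GSTA3 and GSTA5 had at most 1 count in any library. The count of GSTA2 per count of GSTA1 was thus 0.355, 0.297 and 0.213 in parental and 4.22, 3.91 and 4.21 in LNCaP-enzaR (two-sided exact permutation test, p = 0.1, the smallest that 3 against 3 libraries allow). The ratio uses the counts behind both fold changes above, so its test is no separate support. Exact copies elsewhere on the primary chromosomes covered 20.9% of the GSTA2 windows and 26.0% of the GSTA1 windows. How many reads matched both was not measured.

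Because these 2 genes changed so unequally, their promoter windows are shown, with the bases at which they differ in capitals. They are the 250 bases before each RefSeq start on the minus strand of GRCh38.p14, GSTA1 at chr6:52803817-52804066 and GSTA2 at chr6:52763476-52763725.
GSTA1: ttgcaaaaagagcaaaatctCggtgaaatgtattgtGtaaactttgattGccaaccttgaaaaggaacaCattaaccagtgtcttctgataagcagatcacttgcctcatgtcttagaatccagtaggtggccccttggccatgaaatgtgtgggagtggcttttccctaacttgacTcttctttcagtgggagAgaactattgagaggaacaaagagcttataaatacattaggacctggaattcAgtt
GSTA2: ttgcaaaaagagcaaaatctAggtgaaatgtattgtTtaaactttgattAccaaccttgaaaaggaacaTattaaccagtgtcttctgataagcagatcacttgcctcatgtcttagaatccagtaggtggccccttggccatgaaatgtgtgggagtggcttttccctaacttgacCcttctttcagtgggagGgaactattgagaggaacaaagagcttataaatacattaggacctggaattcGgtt
The windows were identical at 243 of 250 positions (97.2%) and differed at 7. Each held 1 CG pair, and neither held TGACNNNGC.

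GSTK1, the kappa-class enzyme of mitochondria and peroxisomes (ENSG00000197448.14, chromosome 7, 143244093 to 143270854), had the largest increase within the 10-gene set. It was at 19.6, 21.1 and 20.3 CPM in parental and at 71.3, 61.8 and 64.9 CPM in LNCaP-enzaR. The lowest resistant library was far above the highest parental one. The mean rose from 20.3 ± 0.770 to 66.0 ± 4.85 CPM (SD, n = 3), or 3.25-fold (log2 1.70, SE 0.07, adjusted p = 4.83e-11). Exact copies elsewhere covered 3.98% of its windows. The nearest tested genes on either side were PIP, a secreted protein, 112 kb away by gene start, and TMEM139. PIP had 3, 5 and 0 counts and then 35, 21 and 42 (log2 3.50, SE 0.68, adjusted p = 0.00037). TMEM139 had 21 counts in each parental library and 7, 7 and 18 in LNCaP-enzaR (adjusted p = 0.0839), and it passed only without LNCaP-enzaR replicate 3 among the libraries left out in turn.

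GSTO1, the omega-class enzyme that reduces disulfides and dehydroascorbate (ENSG00000148834.13, chromosome 10, 104235356 to 104267459), was at 53.6, 55.6 and 54.9 CPM in parental and at 44.01, 38.7 and 41.4 CPM in LNCaP-enzaR. The lines did not overlap, and the means of 54.7 ± 0.976 and 41.4 ± 2.66 CPM (SD, n = 3) differed by a factor of 1.32 (log2 -0.40, SE 0.06, adjusted p = 6.55e-05), below the fold limit. Its neighbour GSTO2, the other omega-class gene, was past the threshold in the opposite direction, from 2.54 ± 0.315 to 5.65 ± 0.404 CPM (log2 1.15, SE 0.13, adjusted p = 1.62e-06). The count of GSTO2 per count of GSTO1 was 0.0459, 0.0410 and 0.0527 in parental and 0.136, 0.148 and 0.126 in LNCaP-enzaR (two-sided exact permutation test, p = 0.1, again the smallest possible). Here too the ratio restates both fold changes and its test is no separate support. CFAP43, on the other side of GSTO1, was also higher (log2 1.54, SE 0.18, adjusted p = 2.51e-06). Little of GSTO1 (2.43%) or GSTO2 (0.814%) was copied elsewhere.

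GSTT2B, a theta-class enzyme (ENSG00000133433.11, chromosome 22, 23957414 to 23961195), was the member that fell. It had 428, 438 and 408 counts in parental and 4, 13 and 20 in LNCaP-enzaR, which is 4.62, 4.82 and 5.19 CPM against 0.0464, 0.147 and 0.202 CPM. The mean fell from 4.88 ± 0.290 to 0.132 ± 0.0788 CPM (SD, n = 3), a 35.9-fold difference (log2 -5.16, SE 0.26, adjusted p = 4.20e-10). The resistant libraries varied widely among themselves but lay far below the parental ones.

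GSTT2B is also the member least certain in identity. It is an inverted duplicate of GSTT2, which the table lists at 23980058 to 23983915 as a polymorphic pseudogene. Of the GSTT2B windows of 50 bases, 94.1% occurred elsewhere on the primary chromosomes and 98.6% on an alternate contig of hg38, a further version of the locus. GSTT2 itself had 3, 6 and 9 counts in parental and 6, 0 and 0 in LNCaP-enzaR. With the counts of both genes summed before the fit, the log2 fold change was -4.97 (adjusted p = 4.15e-11), so the pair together was lower. Which of the copies gave the reads cannot be told from these counts, and whether alternate contigs were in the authors' index is not stated in the sources used here. Of the flanking genes, DDTL was at 3.51 ± 0.123 and 3.04 ± 0.244 CPM (adjusted p = 0.160). MIF, a cytokine gene with all its windows on an alternate contig and 94.1% of its exonic bases in other genes, was read at 0.251 ± 0.0555 and 0.386 ± 0.250 CPM (adjusted p = 0.294), and it passed only without LNCaP-enzaR replicate 2 among the libraries left out in turn. The related GSTT4 had at most 11 counts in any library, and 94.4% of its windows were on an alternate contig. GSTT1 was not analysed here.

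The membrane-bound members changed little. MGST1, a conjugating enzyme and peroxidase of the endoplasmic reticulum and outer mitochondrial membrane (ENSG00000008394.13, chromosome 12, 16347142 to 16609259), was at 143, 132 and 129 CPM in parental and at 106, 117 and 116 CPM in LNCaP-enzaR. The gap between the lines was no wider than the range within the parental libraries. The means were 135 ± 7.42 and 113 ± 6.19 CPM (SD, n = 3; log2 -0.26, SE 0.06, adjusted p = 0.00209). MGST2, which can also make leukotrienes (ENSG00000085871.9, chromosome 4, 139665768 to 139740745), was at 59.1, 58.3 and 56.6 CPM in parental and at 66.7, 69.6 and 70.6 CPM in LNCaP-enzaR. Its means were 58.0 ± 1.26 and 69.0 ± 2.04 CPM (log2 0.25, SE 0.06, adjusted p = 0.00135). Both differences were past the adjusted p and below 1.5-fold. Of the MGST2 exonic bases, 7.94% lie in exons of MAML3, which itself had a like difference (log2 0.27, SE 0.06, adjusted p = 0.00167).

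Over the loci as a whole, the nearest tested protein-coding genes on each side came to 16 that were not members. Of these, 5 were higher, 3 lower and 8 not past the threshold, where 23.3% of all tested genes were higher and 19.5% lower. The higher ones include GSTA1 and GSTO2, which are counted again among the further transferases below. The starts of the neighbours lay from 9.47 kb (DDTL) to 2783 kb (PLEKHA5) from the start of the member. DERA, 436 kb from MGST1, was just inside the fold limit (log2 -0.57). It passed that limit without parental replicate 2, parental replicate 3 or LNCaP-enzaR replicate 2, and with library totals in place of TMM. PLEKHA5, the nearest tested gene on the other side of MGST1 though 2783 kb away, was lower (log2 -1.69, SE 0.09, adjusted p = 3.81e-10). SETD7, beside MGST2, was at 365 ± 3.68 and 305 ± 13.3 CPM (adjusted p = 0.000521), below the fold limit.

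Of 16 further transferases and related membrane proteins listed, 15 were in the table and 7 passed the filter. Of these 7, 5 were higher and none lower, with a median log2 fold change of 1.22. Among all tested genes 23.3% were higher and 19.5% lower. Beside GSTA2, GSTA1 and GSTO2, LTC4S, the enzyme of cysteinyl leukotriene synthesis, had 86, 82 and 124 counts in parental and 373, 218 and 297 in LNCaP-enzaR (log2 1.53, SE 0.24, adjusted p = 6.92e-05). PTGES, a prostaglandin E synthase, had 9, 0 and 5 counts and then 20, 28 and 16 (log2 2.11, SE 0.74, adjusted p = 0.0210). That call was lost without parental replicate 2 (1.52 was the lowest and 2.91 the highest log2 fold change over the alternatives) and without LNCaP-enzaR replicate 2. GSTZ1, which works in tyrosine breakdown, and MGST3 were 1.30-fold and 1.31-fold higher, below the fold limit. HPGDS had 5, 1 and 3 counts in parental and none in LNCaP-enzaR, and ALOX5AP had at most 1. Related membrane proteins such as PTGES and ALOX5AP are counted with the other transferases in the figures and in the 25 genes below.

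**Figure D3:**
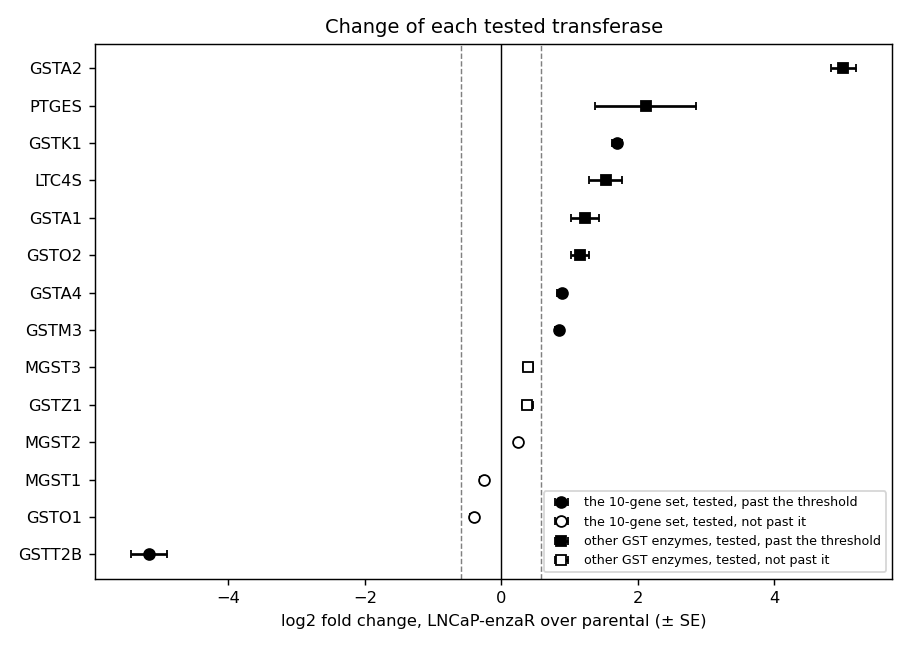
Log2 fold change of LNCaP-enzaR over parental (horizontal axis, bars are SE) for the 14 transferase genes tested (vertical axis). Circles are members of the 10-gene set and squares other transferases, filled where past the threshold, with dashed lines at 1.5-fold. GSTT2B lies alone at -5.16 and GSTA2 at 5.01, with the other genes between -0.40 and 2.11.

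Levels can be compared between genes only per length, for which CPM was divided by the length in kb of each gene's canonical transcript. On this scale the order in parental cells began with MGST1 (146 CPM per kb), MGST2 (78.4) and GSTO1 (67.3), followed by GSTZ1 (41.9), MGST3 (28.4), GSTM3 (24.0), GSTK1 (19.7), GSTA4 (9.41) and GSTT2B (4.40). No neighbours in that order overlapped between libraries. In LNCaP-enzaR the order was MGST1 (122 CPM per kb), MGST2 (93.2), GSTK1 (63.9), GSTZ1 (54.5), GSTO1 (50.9), GSTM3 (43.3), MGST3 (37.2) and GSTA4 (17.4). There GSTK1 and GSTZ1 overlapped between libraries, as did GSTZ1 and GSTO1. GSTK1 had thus moved from the seventh place to the third, and GSTT2B from the ninth to the fourteenth, at 0.119 CPM per kb. The order depends on the length used: divided by all exonic bases of the gene, GSTO1 led in parental and GSTM3 in LNCaP-enzaR, with MGST1 at rank 4 and rank 5.

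Summed per length, the 10 members came to 349 ± 7.86 CPM per kb in parental and 391 ± 3.59 in LNCaP-enzaR (SD, n = 3), and all 25 transferase genes to 422 ± 4.09 and 494 ± 10.6. The composition of that total shifted. Per kb of canonical transcript, the share of MGST1 was 34.5% in parental and 24.7% in LNCaP-enzaR, and that of GSTO1 16.0% and 10.3%. GSTK1 went from 4.67% to 12.9% and GSTM3 from 5.70% to 8.75%. MGST2 was at 18.6% and 18.9%. GSTT2B went from 1.04% to 0.0242%, while GSTA2 went from 0.0371% to 1.05%. The sizes of these shares depend on the length used. Divided by all exonic bases, GSTO1 had 27.8% and 16.5%, MGST1 15.6% and 10.3%, GSTM3 17.9% and 25.4%, GSTT2B 3.78% and 0.0812%, and GSTA2 0.135% and 3.50%, each in the same direction as above. The share of MGST2 was then 15.7% and 14.7%.

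**Figure D4:**
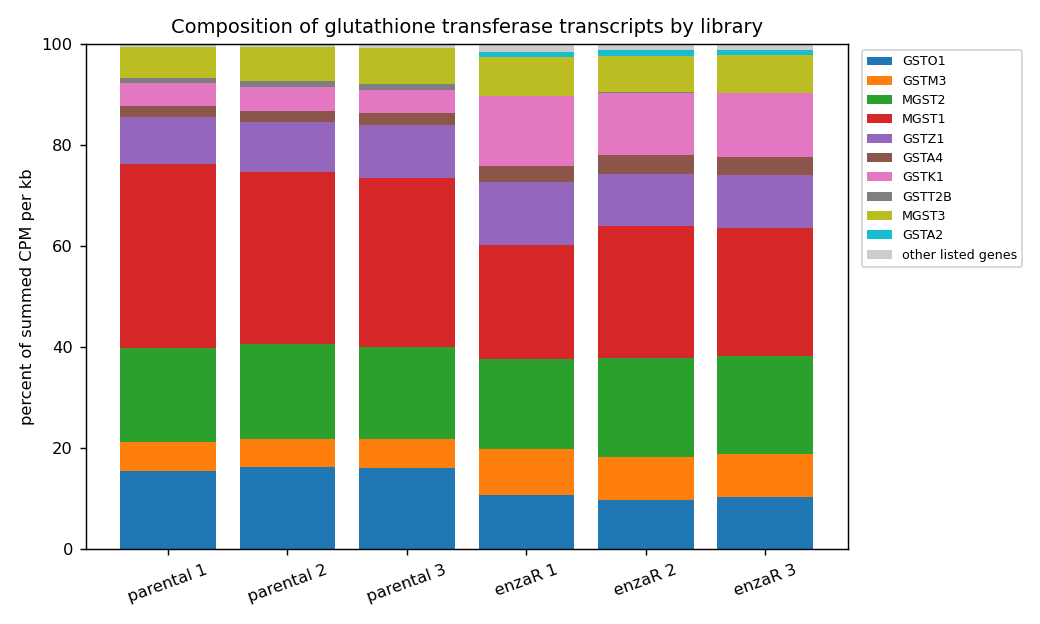
Share of each gene in the summed CPM per kb of the 25 transferase genes (vertical axis, percent) in each of the 6 libraries (horizontal axis), per kb of canonical transcript. Each colour is a gene and each bar adds up to 100. The MGST1 share narrows and the GSTK1 share widens in all 3 LNCaP-enzaR libraries.

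Other genes of the glutathione pathway were counted in lists of known function. Their counts compare with 23.3% of all tested genes that were higher and 19.5% that were lower. In the synthesis and recycling of glutathione, 15 of 15 genes were tested, 2 were higher and 6 lower, with a median log2 fold change of -0.38. Among the lower genes, TKT (log2 -0.59) kept its call in 6 of 15 alternatives and lost it with DESeq2. TALDO1 lost its call under upper-quartile scaling. SLC7A11, which imports cystine, fell from 257 ± 3.84 to 52.3 ± 7.95 CPM (log2 -2.30, SE 0.09, adjusted p = 2.26e-11). GGCT, which breaks down gamma-glutamyl peptides, was lower too (log2 -0.81, SE 0.07, adjusted p = 5.92e-08). OPLAH, an oxoprolinase, and GCLC, the catalytic subunit of the enzyme that starts glutathione synthesis, were higher (log2 0.80 and 0.67). Of 12 tested genes that use glutathione against peroxides, disulfides and aldehydes, 1 was higher and 5 lower (median -0.25). On the log2 fold change scale, HAGH of the glyoxalase pathway was at 0.78, the glutaredoxin GLRX3 at -0.98 and the peroxidase GPX8 at -0.97. GLO1, also of the glyoxalase pathway, went the other way from HAGH (log2 -0.78, SE 0.06, adjusted p = 3.87e-08).

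The steps after conjugation had 11 tested genes of 19 in the table, with 2 higher and 1 lower (median log2 fold change 0.13). For this list and the phase 1 list, the shares over all tested genes were 23.3% higher and 19.5% lower. GGT7 of the gamma-glutamyltransferase family (log2 1.08) and the deacylase ACY1 (log2 0.92) were higher. The exporter ABCC4 fell from 166 ± 3.96 to 56.4 ± 3.86 CPM (log2 -1.56, SE 0.06, adjusted p = 3.04e-11). Of 13 tested genes of phase 1 metabolism, which prepares compounds for conjugation, 6 were higher and 2 lower (median 0.48). EPHX2, a soluble epoxide hydrolase, rose from 38.6 ± 1.20 to 103 ± 5.38 CPM (log2 1.41, SE 0.06, adjusted p = 7.64e-11), and ALDH3A2, a fatty aldehyde dehydrogenase, from 108 ± 2.96 to 239 ± 10.5 CPM (log2 1.14, SE 0.06, adjusted p = 2.45e-10). The quinone reductase NQO1 fell from 70.3 ± 1.45 to 5.19 ± 0.338 CPM (log2 -3.76, SE 0.07, adjusted p = 3.32e-14).

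Of the regulators of transferase transcription, 11 of 12 were tested, 3 were higher and 4 lower (median log2 fold change -0.02). Over all tested genes 23.3% were higher and 19.5% lower. NFE2L2, which encodes NRF2, fell from 88.3 ± 1.21 to 36.6 ± 2.50 CPM (log2 -1.27, SE 0.06, adjusted p = 3.45e-10). BACH1, which represses the same sites, was lower (log2 -1.21, SE 0.10, adjusted p = 8.73e-08), and MAFK, a partner of both, was higher (log2 0.76, SE 0.08, adjusted p = 1.45e-06). Without LNCaP-enzaR replicate 2 the number past the threshold was 4 in place of 7, since AHR, KEAP1 and NR1I3 no longer passed. Of the 8 members with a promoter window, GSTP1, GSTA4 and GSTO1 held TGACNNNGC on either strand, where 10.9% of all windows did. Their directions were untested, higher and below the fold limit. Among the other transferases GSTM1, GSTM5, ALOX5AP and HPGDS held it too, each with at most 6 counts in any library.

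**Figure D5:**
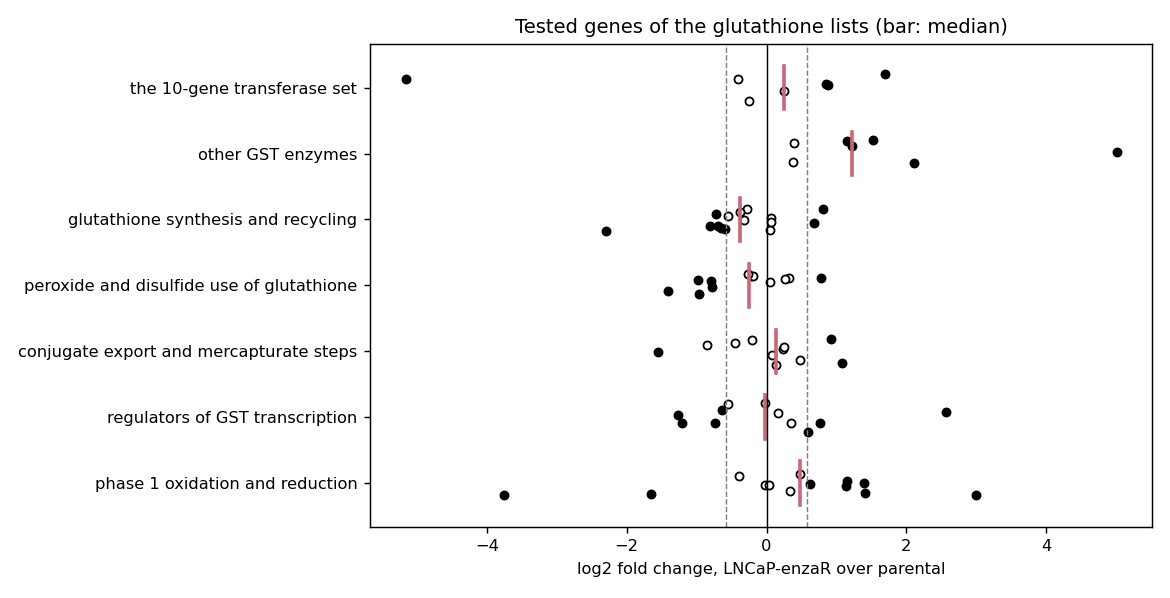
Log2 fold change of LNCaP-enzaR over parental (horizontal axis) for each tested gene of the 7 lists (vertical axis). Filled points are past the threshold, red bars are list medians and dashed lines mark 1.5-fold. The medians run from -0.38 for synthesis and recycling to 1.22 for the other transferases.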

How the data were processed

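Polyadenylated RNA was sequenced as paired-end reads. The authors trimmed reads with Cutadapt, aligned them to GRCh38 with STAR and counted them per gene with featureCounts, and the deposited values are raw counts per gene. The strand setting and the treatment of reads with several matches are not given in the sources used here. Groups and replicate numbers came from the labels. Same-numbered libraries were not treated as pairs in the main fit (correlation of deviations -0.28 to 0.01).

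Counts were filtered with filterByExpr (19711 genes, holding 99.96% of counts), scaled by TMM and tested with edgeR 4.0.16 (robust quasi-likelihood F-test, Benjamini-Hochberg, R 4.3.3) on all 6 libraries. The fold limit of 1.5 and the adjusted p of 0.05 are those of the study, whose tool, DESeq2, was an alternative (version 1.42.0). Between libraries of a line counts differed by more than sampling noise (chi-square per degree of freedom 5.56 to 35.6). Simulated data on 13221 genes gave back 200 of 200 changed genes with 2 false calls. The simulated differences were all larger than those of GSTM3 and GSTA4, genes of low level were left out, and a far smaller share of genes changed than in the real data. That run therefore checks the code and does not measure how well smaller differences or low counts are called.

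Members and lists were chosen with earlier results of these data known. Named were all members, every listed transferase, of each other list up to 2 genes at either end of the log2 fold changes (among calls that averaged 5 CPM or more and whose groups did not overlap), and the nearest tested gene on each side. AHR, KEAP1, NR1I3, GLO1, TKT and TALDO1 were named after their values were seen. So were the luminal markers KRT8 and STEAP2 and the basal markers KRT14, ITGB4 and DST. Transcript lengths and exon overlap came from GENCODE v44, exact copies from hg38 and promoters from RefSeq, which had windows for 8 of 10 members and not for GSTT2B and MGST2. DPEP3, CYP1B1, COL1A2, FAP and MS4A1 were listed and not analysed here. Of 6 fibroblast markers 4 passed the filter, with COL1A1 lower and LUM and PDGFRB higher. All 6 summed to 14.7 to 17.9 CPM in parental and 8.21 to 8.95 CPM in LNCaP-enzaR. Of 6 endothelial markers 2 passed, and all 6 summed to 5.81 to 6.21 and 4.09 to 4.68 CPM. Floors of 3 counts cover counting error only, since amplified reads are not independent molecules.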

Additional observations from a re-analysis of the deposited data

How the results depend on the processing

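All 7 tested transferases of the set kept their direction and their side of the threshold in each alternative that gave a value (15 for each), which were DESeq2, 3 other scalings (RLE, upper quartile, library totals), 2 other filters (none, or a minimum of 10 counts per library), tests of protein-coding genes alone or without mitochondrial genes, the replicate block, each library left out in turn and, for GSTT2B, the sum with GSTT2. GSTT2B had no value under the minimum of 10 counts, and the summed low mu-class genes gave none. Log2 fold changes with 1 library left out ran from 0.81 to 0.88 for GSTM3, 0.86 to 0.91 for GSTA4, 1.65 to 1.75 for GSTK1, -0.44 to -0.35 for GSTO1, -5.62 to -4.78 for GSTT2B, -0.29 to -0.20 for MGST1 and 0.23 to 0.28 for MGST2. With no minimum fold, 13074 genes in all passed, 7 of the set, 10 peroxide and disulfide genes and 8 export and mercapturate genes. At a fold of at least 2 these were 5561 genes in all and 2 of the set, with 1 gene each of the synthesis and peroxide lists and 3 regulators. Regulators numbered 4 to 6 with 1 library left out, against 7 with all. Synthesis and recycling genes past the threshold numbered 6 under upper-quartile scaling and 9 with library totals, against 8 in the main fit. Under the replicate block 8212 genes passed, 8174 of them in common and in the same direction, and 4 of the set. The labels state no pairing, and same-numbered libraries did not deviate together. With 3 libraries per line this cannot tell whether they shared a batch. Upper-quartile scaling shifted the median log2 fold change of all genes by 0.10 and moved the higher share of calls from 54.5% to 60.9%. The order and shares of levels by all exonic bases were added after the data were seen. Depth limits GSTP1, GSTM2 and GSTM4, which gave no fold change.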
